A study of Homo sapiens with 6 samples.

Results

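Human chromosome 19 carries the largest collection of C2H2 zinc finger genes in the genome, and the genes described here are its protein-coding genes whose symbol is ZNF followed by a number. The annotation (GENCODE release 44, GRCh38) lists 246 such genes, and 245 of them had at least 1 quantified transcript among 34834 genes in all. ZNF888 was not analysed here. RNA sequencing was done in SKOV3, an established human ovarian cancer cell line. There were 3 samples transfected with 50 nM of a pool of siRNA against the long non-coding RNA DNM3OS and 3 samples transfected with 50 nM non-targeting siRNA, all collected after 48 h. The question asked here was whether the zinc finger genes, or any of their clusters along the chromosome, differed between knockdown and control. No value for DNM3OS itself was analysed here, so the extent of the knockdown is not shown by these values.

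Each zinc finger of this family is a short loop held by a zinc ion between a pair of cysteines and a pair of histidines, and fingers in a row read a stretch of DNA. Many family members also carry a KRAB domain at their start. KRAB binds TRIM28, which brings the histone methyltransferase SETDB1 and HP1 proteins to silence the bound site, very often a transposable element. The family grew by repeated tandem duplication, which left near-identical neighbours in large clusters.

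A finger unit runs over 84 bases, from the first cysteine through the linker to the next finger. The units below come from the 3 members with the highest level per transcript length, and show how alike such units are within the family. They lie in coding sequence on GRCh38, at chr19:57874415-57874498 (minus strand, ZNF814), chr19:58067130-58067213 (plus strand, ZNF135) and chr19:44288391-44288474 (minus strand, ZNF235). Capitals mark the codons of the paired cysteines and the paired histidines.
ZNF814: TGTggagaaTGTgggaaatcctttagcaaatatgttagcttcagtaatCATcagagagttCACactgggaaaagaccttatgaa
ZNF135: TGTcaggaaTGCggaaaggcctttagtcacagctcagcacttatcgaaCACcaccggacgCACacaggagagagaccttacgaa
ZNF235: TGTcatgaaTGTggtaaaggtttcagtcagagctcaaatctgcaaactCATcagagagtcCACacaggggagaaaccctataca

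In the coding sequences of the annotation, the members carried a median of 12 finger patterns, with a range from 1 to 36. A full pattern of the KRAB A box was found in 130 members, a partial one in 71 and none in 45. None of the 246 matched the pattern searched for the SCAN domain, another domain found in zinc finger proteins. A pattern that was not found does not show that the domain is absent.

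The closest relatives were ZNF417 and ZNF587, neighbours that repress endogenous retroviruses. Their proteins matched at 564 of 575 residues (98.09%) and their coding sequences at 1709 of 1725 bases (99.07%). The finger unit below spans codons 466 to 493 in both genes, at chr19:57908799-57908882 on the minus strand for ZNF417 and chr19:57859808-57859891 on the plus strand for ZNF587. It was picked as the unit with the most differing bases among the matched units of the pair. Capitals mark the 3 bases that differ.
ZNF417: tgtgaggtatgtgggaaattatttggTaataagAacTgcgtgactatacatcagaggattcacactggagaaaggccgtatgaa
ZNF587: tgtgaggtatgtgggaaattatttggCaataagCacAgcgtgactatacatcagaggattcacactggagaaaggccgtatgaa

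Such likeness bears on the counts, because reads that fit several transcripts were divided among them by the quantification. Of the 31-base words in a member's transcripts, a median of 10.7% also occurred in another gene, and the share ran from 0% to 87.5% (ZNF177). Words were matched on either strand, so exons that overlap those of another gene count as shared too. For ZNF177 only 0.21% of the words occurred in another member. Of its exon bases, 90.6% lay in exons of another gene on the same strand. The share found in any other gene was over 25% in 37 members. It was 49.2% for ZNF417, which shared 40.2% with ZNF587. It was 49.9% for ZNF587, which shared most (32.3%) with ZNF814, its neighbour on the other strand. Of the exon bases of ZNF587, 33.2% lay opposite an exon of another gene. The estimated counts of ZNF417 were 29, 17 and 23 in knockdown replicates 1 to 3 and 26, 13 and 20 in the controls, and those of ZNF587 were 418, 266 and 278 against 242, 305 and 287. The groups overlapped for both genes. The division of reads between them, and between ZNF587 and ZNF814, is uncertain.

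Each sample held between 1610937 and 1995888 estimated counts in all, of which 4.78% to 6.38% fell outside the annotation. Knockdown replicate 1 stood apart: its counts differed from those of the other samples by a chi-square per degree of freedom of 5.50 to 13.1, against 2.04 to 4.58 between the other 5. The 87 ribosomal protein genes, among the most abundant messages of any cell, held 0.234% of the counts on genes in knockdown replicate 1 and 0.323% to 0.547% in the other samples. PLLP alone held 15.7% to 22.2%. Of 6 epithelial and ovarian cancer markers, KRT8, KRT18, EPCAM, PAX8 and ERBB2 were counted in every sample, and MSLN reached at most 1 count. Their summed level was 967 CPM in knockdown replicate 1, 1681 and 2215 in the other knockdown samples and 1100 to 1659 in the controls. Most of that sum was KRT8, at 783, 1310 and 1801 CPM in the knockdown and 782 to 1177 CPM in the controls. KRT18 held 38 to 165 counts, EPCAM 16 to 32 and PAX8 26 to 46. Of the 5 markers of other cell types, all were above 0 in every sample, among them PTPRC, a leukocyte gene, with 91 to 148 counts. The summed level of those 5 was 122 to 181 CPM in the knockdown and 130 to 168 CPM in the controls. The part of these features in the zinc finger values was not tested.

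The zinc finger genes together took 1.34% of the counts on genes in knockdown replicate 1, 0.934% and 0.936% in knockdown replicates 2 and 3, and 0.957%, 1.08% and 0.997% in the controls. The first knockdown sample was thus highest, and the other 2 lay below every control in this raw share. On TMM-scaled libraries the members summed to 11630, 10230 and 10270 CPM in the knockdown and 9928, 10740 and 10300 CPM in the controls, so that all knockdown samples lay above the first control. In bulk RNA, fewer cells that express a gene and less of its RNA per cell cannot be told apart. The level per transcript length (TPM, the authors' abundance scaled by transcript length and depth, averaged over the 6 samples) had a median of 20.7 over the 245 members, with quartiles of 5.38 and 39.8. It was 5.47 over the 260 ZNF-numbered genes on other chromosomes and 9.35 over the 1196 other protein-coding genes of chromosome 19. ZNF728 was listed at 0 in all samples, and the highest level was that of ZNF814.

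Among the 5 members with the highest levels, ZNF814 (chr19:57848731-57889074, minus strand) stood at 710, 554 and 578 TPM in the knockdown and 661, 649 and 600 TPM in the controls. ZNF135 (chr19:58059239-58086310, plus strand) stood at 235, 351 and 372 TPM against 328, 312 and 374. ZNF235 (chr19:44228729-44305046, minus strand) stood at 192, 272 and 259 TPM against 227, 218 and 257. The first knockdown sample was the highest of the 6 for ZNF814 and the lowest for the other two, and the groups overlapped for all 3. ZNF44 (mean 236 TPM) and ZNF875 (mean 218 TPM) came next. ZNF235 and ZNF44 did not separate beyond their spread between samples. For ZNF875 all knockdown samples lay below all controls in log2 CPM, with a log2 fold change of -0.12.

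Much of this level came from transcripts that lie opposite other genes. For ZNF814, 70.8% of the counts were on a retained-intron transcript with 82.7% of its bases opposite exons of ZNF587, its neighbour on the other strand. For ZNF135, 98.9% were on a transcript subject to nonsense-mediated decay with 73.7% of its bases opposite ZSCAN18. For ZNF235, 94.7% were on a short coding transcript with 64.9% of its bases opposite ZNF227. The library kit marked strand, but whether the quantification used it is not given in the sources used here, so reads of a gene and of its antisense partner cannot be told apart. Whether the values of the other members count the annotated strand was not tested either, and the low ribosomal protein share given above applies to all of them. Of the 20 members with the highest level, the leading transcript lay opposite another gene over more than 30% of its bases in 7, compared with 16 of the 245 members. Protein-coding transcripts held 63.4% to 67.5% of the members' counts, retained introns 15.9% to 17.0% and decay transcripts 8.73% to 12.7%.

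Genes with low counts were left out of the comparison, which kept 197 of the 246 members and 11814 genes in all. The 48 quantified members that were left out had a mean of at most 11.8 counts. With edgeR's exact test, a call required an adjusted p below 0.05 and at least a 2-fold difference, and 0 members were called lower and 0 higher. Over all genes tested, 1 was called lower (0.00846%) and 0 higher (0%). At an unadjusted p below 0.05, 2 members were higher and 0 lower, where 1.01% of all genes tested were higher and 1.91% lower. By edgeR's quasi-likelihood test 4 members, and by DESeq2 0, had an unadjusted p below 0.05, and neither tool called any. Nothing in the labels says that the samples came from separate cultures, and the p-values then measure only the spread between these samples.

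The 2 members at an unadjusted p below 0.05 were ZNF761 and ZNF671, named here because the count is small. ZNF761 (chr19:53431984-53461862, plus strand) is a KRAB gene with 17 finger patterns. Its level in CPM (counts on a scale of TMM-adjusted library sizes) were 33.02, 35.1 and 30.9 after knockdown and 22.8, 21.0 and 20 in the controls. All 3 knockdown samples lay above all 3 controls, and the log2 fold change was 0.63 ± 0.07 (SE, n = 3 per group, edgeR exact test, adjusted p = 1). Leaving out knockdown replicate 1 gave 0.65 on the log2 scale. Of its 31-base words, 25.97% recurred in other genes.

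ZNF671 (chr19:57719751-57727624, minus strand), a gene often methylated in carcinomas, had the highest log2 fold change of the members at 1.11 ± 0.56 (SE, n = 3 per group, edgeR exact test, adjusted p = 1). It stood at 28.4, 9.46 and 8.42 CPM in the knockdown and 6.84, 9.82 and 5.29 CPM in the controls. Only knockdown replicate 1 was high, the groups overlapped, and the log2 fold change without that sample was 0.31.

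The 197 tested members had a median log2 fold change of 0.06, with a range from -0.81 (ZNF100) to 1.11, against a median of 0.0042 over all genes tested. The value was above 0 for 127 members and below 0 for 70. It was above 0 for 64.5% of the members and 50.6% of all genes tested, 53.5% of the 159 tested ZNF genes on other chromosomes (median 0.02) and 47.1% of the 656 other genes of chromosome 19 (median -0.02). These shares describe genes that are not independent of each other, and no test was made of the difference between lists.

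Knockdown replicate 1 carried this shift. It was the highest of the 6 samples in 97 of the 197 members (49.2%), compared with 28.03% of all genes tested and 30.19% of the ZNF genes on other chromosomes. It was the lowest in 28 of the 197 members and in 3524 of the 11814 genes tested. Relative to each gene's own mean over the samples, the median member stood at 0.20 on the log2 CPM scale in that sample. It stood at -0.06 and -0.03 in knockdown replicates 2 and 3 and at -0.06, 0.04 and -0.02 in the controls. Without knockdown replicate 1, the median log2 fold change was -0.0187 (all genes -0.0067), and 97 of 198 members were above 0. The direction of the shift thus turned with this single library. For the ZNF genes on other chromosomes, the median in knockdown replicate 1 stood at 0.11 on the log2 CPM scale (all genes 0.02). Their median log2 fold change also turned without that sample, from 0.02 to -0.03.

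**Figure D1:**
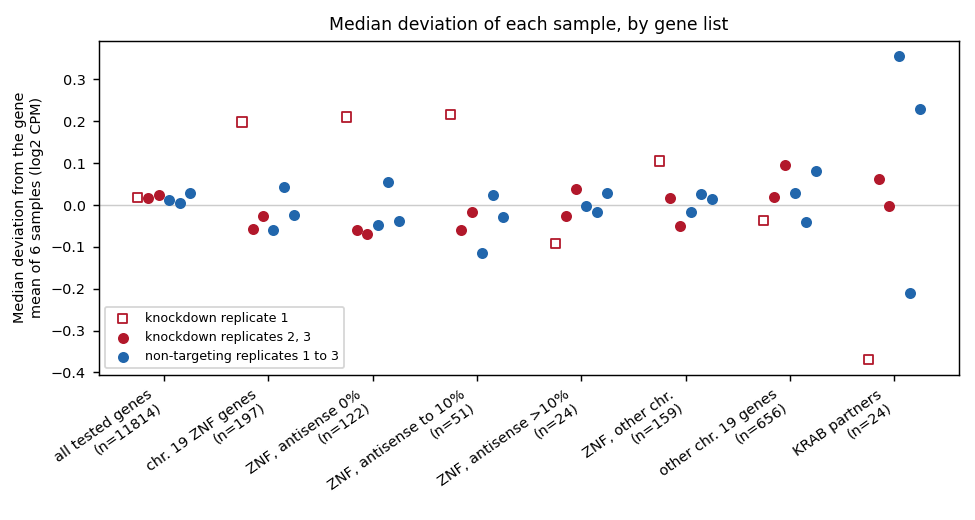
Median deviation of each sample from the gene's own mean over the 6 samples (y axis, log2 CPM) for 8 gene lists (x axis, with the number of tested genes). Open squares are knockdown replicate 1, filled red points knockdown replicates 2 and 3 and blue points the controls. Knockdown replicate 1 stands at 0.20 for the chromosome 19 ZNF genes, at -0.09 for those with over 10% antisense exon bases and at -0.37 for the KRAB partners.

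The members whose exons lie opposite another gene over more than 10% of their bases were not high in knockdown replicate 1, and the difference from other members was not tested. The 122 tested members with no such bases stood at 0.21 in knockdown replicate 1, and the 51 with up to 10% at 0.22, as medians on the log2 CPM scale. The 24 with more than 10% stood at -0.09 and were highest in that sample in 5 cases and lowest in 11. The median log2 fold changes of these 3 sets were 0.06, 0.10 and 0.0011.

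Single transcripts gave like values. Among transcripts of the members with a mean of at least 50 counts, the ratio of CPM in knockdown replicate 1 to the mean of the other 5 samples had a median of 1.27 over the 54 with no antisense base, and 45 of them were above 1. Over the 15 with up to 30% it was also 1.27, and 12 were above 1. It had a median of 0.938 over the 11 with more than 30% antisense bases, and 5 were above 1. The leading transcript of ZNF471, with no antisense base and singled out after its values were seen, held 1355 counts in knockdown replicate 1 and 429 to 724 in the other samples, a ratio of 1.84. The leading transcript of ZNF135 had a ratio of 0.594 and that of ZNF235 a ratio of 0.653. The ratio of the ZNF814 transcript opposite ZNF587 was 0.938, while a second ZNF814 transcript with no antisense base stood at 1.30.

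**Figure D2:**
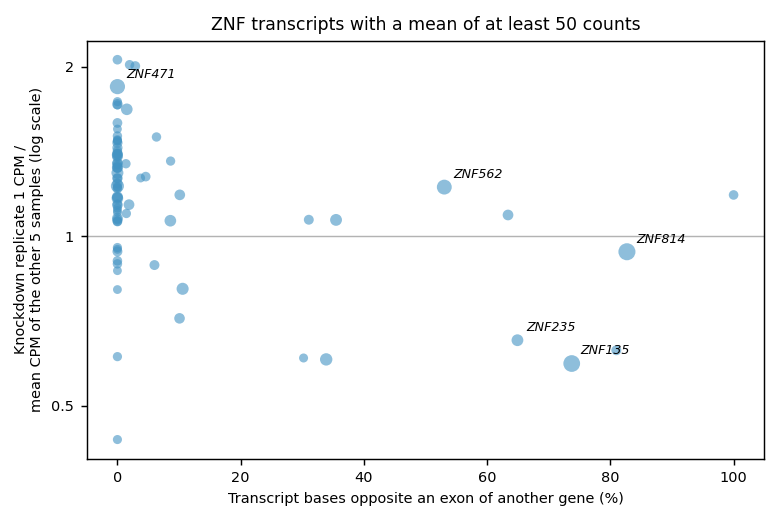
Ratio of CPM in knockdown replicate 1 to the mean CPM of the other 5 samples (y axis, log scale) against the percentage of a transcript's bases opposite an exon of another gene (x axis), for member transcripts with a mean of at least 50 counts. Point size grows with the mean count. Of the 54 transcripts with no antisense base 45 lie above 1, and ZNF135 and ZNF235 lie at 0.594 and 0.653.

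By sequence sharing and by protein class, the median member of every set was high in knockdown replicate 1. The 29 tested members that shared over 25% of their 31-base words had a median log2 fold change of 0.11, and the 168 others 0.06. It was 0.07 over the 110 with a full KRAB pattern, 0.08 over the 57 with a partial one and 0.01 over the 30 with none. In knockdown replicate 1 the medians of these 3 classes stood at 0.19, 0.21 and 0.19 on the log2 CPM scale, and those of the sets with more and less sharing at 0.19 and 0.20. The summed level of the set with more sharing was instead lowest in that sample, at 2328 CPM against 2346 to 2527. In each of the other sets the sum was highest in that sample. The RefSeq promoters of 216 members (GRCh38, 300 bases) had a median GC content of 59.8% and a median of 20 CG pairs, and 15 or more CG pairs occurred in 74.1% of them. Over all 27305 promoters the values were 58.3%, 14 and 48.8%.

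By position, members less than 1 Mb apart formed 9 groups of at least 5 genes, and 11 members were scattered. From the start of the chromosome, the groups spanned chr19:2819868-2944971 (5 members), chr19:7069703-9793180 (15), chr19:11483427-12640098 (25), chr19:19668796-24129968 (37), chr19:34677639-34964229 (5), chr19:36182276-37817300 (26), chr19:43525497-45076478 (24), chr19:51571283-53580269 (39) and chr19:55476617-58481230 (59). They are numbered 1 to 9 in this order. Median levels were highest in group 6 (41.0 TPM) and group 8 (31.1 TPM) and lowest in group 5 (6.03 TPM), next to group 9 (9.87 TPM), which also held ZNF814.

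Median log2 fold changes by group lay between -0.04 and 0.15. In group 8, 19 of 34 tested members were below 0 and the median was -0.04, but it was 0.03 with length-scaled TPM counts and 0.0467, 0.0010 and 0.0087 without knockdown replicate 2, knockdown replicate 3 and control replicate 1. In group 4 the median was 0.04, with 17 of 31 above 0, and it was -0.04 with no filter on low counts and -0.0121 without control replicate 1. In the remaining groups the median was 0.06 (group 7), 0.10 (groups 3 and 9), 0.11 (group 6), 0.12 (group 1), 0.13 (group 2) and 0.15 (group 5). Knockdown replicate 1 was the highest of the 6 samples in every group but group 7, where it stood at -0.03 on the log2 CPM scale. Elsewhere it stood between 0.16 and 0.30. Without that sample the median fell in 8 of the groups and rose in group 7, from 0.06 to 0.10. It was then -0.06 in group 4 and -0.14 in group 8, where 9 of 34 members were above 0. No group was tested, since its members share their samples.

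**Figure D3:**
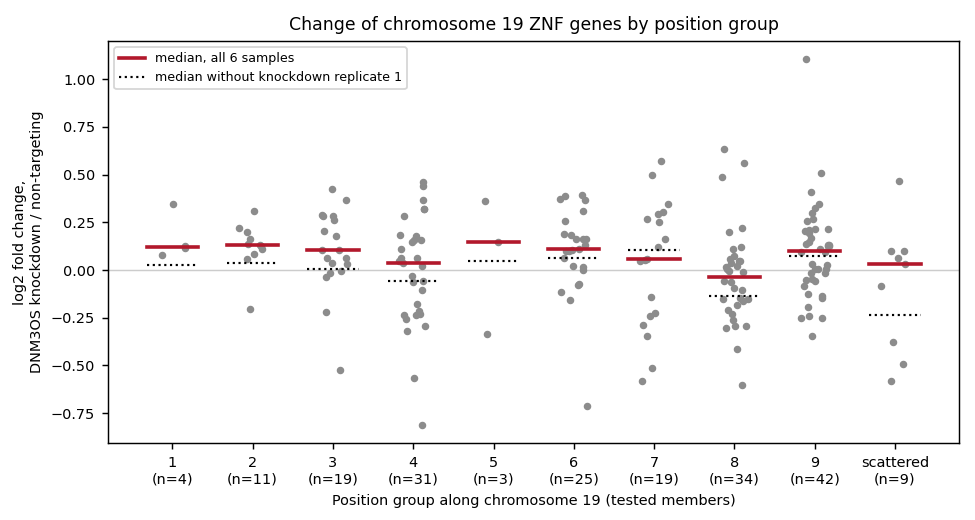
Log2 fold change, knockdown against non-targeting (y axis), of each tested member in the 9 position groups and among the scattered members (x axis). Grey points are genes, red lines the medians with all 6 samples and dotted lines the medians without knockdown replicate 1. Medians lie between -0.04 and 0.15 with all samples, and fall in every group but group 7 without that replicate.

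None of the members with the most counts in each group had separate knockdown and control samples. ZNF556 in group 1 stood at 89.8, 70.2 and 99.6 CPM against 88.9, 85.8 and 71.8 in the controls. ZNF562 in group 2, with 53.1% of the bases of its leading transcript opposite ZNF561-AS1, stood at 432, 359 and 341 CPM against 332, 389 and 369. ZNF44 in group 3 stood at 201, 228 and 207 CPM against 214, 215 and 222. These are the leading members of the first 3 groups. ZNF493 in group 4 stood at 212, 190 and 159 CPM against 179, 210 and 164. ZNF181 in group 5 stood at 45.6, 38.5 and 32.98 CPM against 29.6, 33.4 and 28.8, a log2 fold change of 0.36 ± 0.15 (SE, n = 3 per group). Its lowest knockdown sample lay below its highest control. In groups 6 and 8, ZNF383 stood at 118 to 125 CPM in the knockdown and 99.4 to 124 in the controls, and ZNF347 at 110 to 143 against 112 to 131. In group 7 and group 9 the leading members were ZNF235 and ZNF814, with log2 fold changes of 0.05 ± 0.24 and -0.01 ± 0.03. ZNF333, the leading scattered member, stood at 141, 103 and 108 CPM against 103, 120 and 124. In 7 of these 10 genes knockdown replicate 1 lay above the other knockdown samples.

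For 11 members all knockdown samples lay above all controls (5.58% of the 197, against 4.42% of all genes tested), and for 9 all lay below (4.57% against 3.56%). Both shares were close to those over all genes. Without knockdown replicate 1, 16 members lay above (8.12%, against 10.1% of all genes tested) and 26 below (13.2% against 8.07%). The 8 with the largest log2 fold changes in each direction are given here. With 3 samples against 3, the smallest p that a two-sided exact permutation test allows is 0.1. Separate groups always give that p, so for these 20 members it follows from how they were picked and adds no support. All 20 had an adjusted p = 1 by edgeR's exact test.

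Besides ZNF761, the highest log2 fold change with separate groups was that of ZNF677 (chr19:53235381-53254898, minus strand), which is silenced by methylation in some carcinomas. It stood at 40.9, 46.6 and 37.9 CPM in the knockdown and 31.3, 34.7 and 23.5 in the controls (log2 fold change 0.49 ± 0.18, SE, n = 3 per group). ZNF486 (chr19:20167214-20200488, plus strand) stood at 83.7, 55.4 and 77.9 CPM against 51.8, 54.3 and 51.8, so that its second knockdown sample was barely above the highest control. ZNF571 stood at 61.9, 59.4 and 49.1 CPM against 42.7, 46.5 and 41.8, and ZNF772 at 61.9, 58.8 and 54.7 against 45.6, 52.4 and 45.3. The log2 fold changes of these 2 were 0.39 and 0.30. ZNF627 (0.42), ZNF726 (0.37) and ZNF780B (0.46) were also above the controls in each knockdown sample, at mean levels of 17.9, 25.4 and 8.46 CPM in the knockdown. Over all samples left out in turn, the 8 log2 fold changes lay between 0.25 and 0.68, and that of ZNF780B fell to 0.29 without knockdown replicate 1. The 3 further members with separate groups were ZNF414, ZNF529 and ZNF549, with log2 fold changes of 0.16, 0.13 and 0.11.

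Below the controls, ZNF180 (chr19:44474428-44500524, minus strand) stood at 6.98, 6.75 and 7.02 CPM after knockdown and 13.1, 9.17 and 8.82 in the controls (log2 fold change -0.58 ± 0.16, SE, n = 3 per group). ZNF473 (chr19:50025714-50053414, plus strand), which takes part in the 3′ end processing of histone messages, stood at 13.5, 8.78 and 16.1 CPM against 22.2, 17.7 and 17.7 (-0.58 ± 0.26). ZNF253 stood at 6.05, 7.43 and 8.42 CPM against 9.68, 10.5 and 11.8 (-0.56 ± 0.14). These 3 genes rested on 10 to 39 counts in each sample. Above such counts, ZNF528 had 62 to 108 counts and stood at 50.2, 41.9 and 49.1 CPM against 61.0, 55.7 and 58.2 (-0.30 ± 0.09).

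ZNF274 (chr19:58183029-58213562, plus strand), a KRAB protein known to bring SETDB1 to the ends of other zinc finger genes, stood at 40.9, 40.5 and 33.7 CPM against 43.3, 42.6 and 46.5 in the controls (-0.20 ± 0.10). ZNF227, the gene opposite ZNF235, stood at 42.8, 44.6 and 44.2 CPM against 54.1, 53.0 and 46.5 (-0.22 ± 0.07), and 19.1% of its exon bases lay opposite another gene. ZNF615 and ZNF320 had log2 fold changes of -0.23 and -0.16, and ZNF875, the ninth, of -0.12. Several of these values rested on a single library. ZNF615 was at -0.0677 without control replicate 3, ZNF274 at -0.11 without knockdown replicate 3 and ZNF180 at -0.38 without control replicate 1. ZNF473 was at -0.39 without knockdown replicate 2, ZNF320 at -0.0967 without knockdown replicate 1 and ZNF875 at -0.0509 without knockdown replicate 3.

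**Figure D4:**
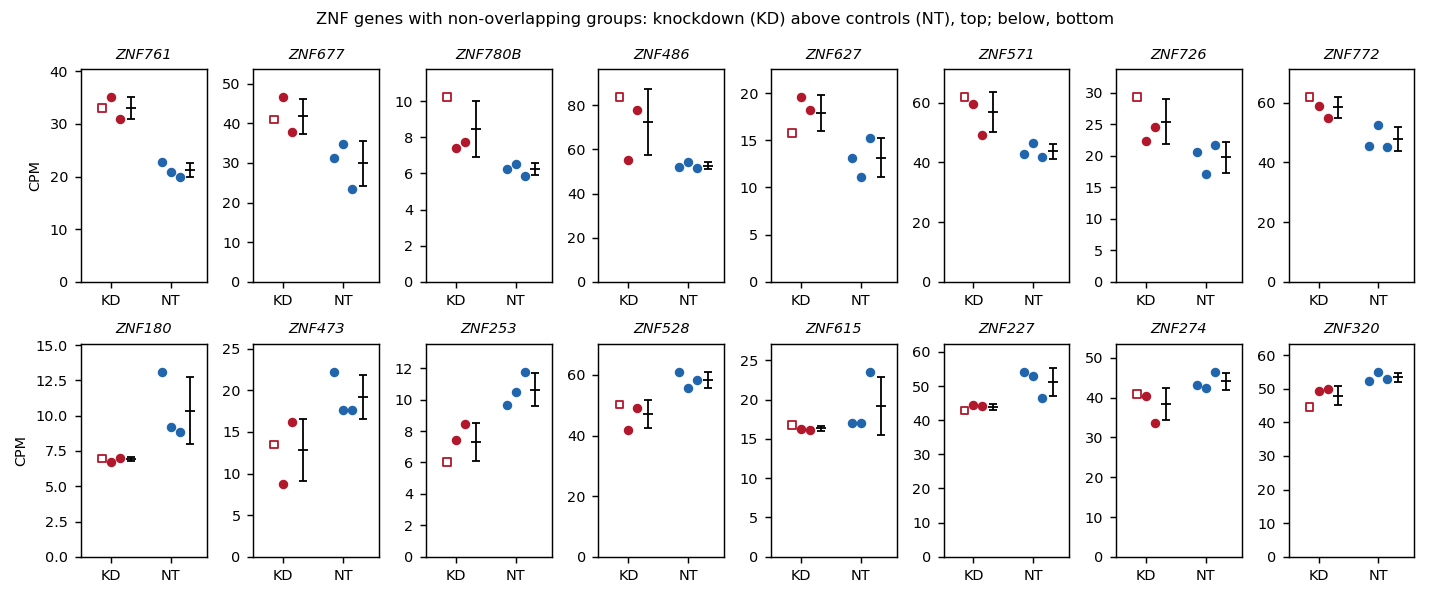
CPM (y axis, from 0) in knockdown (KD, red, replicate 1 as an open square) and control samples (NT, blue) of the members whose groups do not overlap, the 8 with the largest log2 fold changes above the controls (top) and the 8 below them (bottom). Black bars are the mean and SD of 3 samples. ZNF761 has the largest log2 fold change above, with 30.9 to 35.1 CPM against 20 to 22.8.

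Some members with a large log2 fold change, ZNF671 and ZNF100 among them, had overlapping groups. ZNF100 had the lowest log2 fold change, -0.81 ± 0.58 (SE, n = 3 per group), with 14.0, 8.78 and 11.2 CPM against 37.6, 12.4 and 10, so that a single control was high. ZNF850 is given for a single transcript and not for its fold change. Its leading transcript held 229, 152 and 0.3 counts in the knockdown and 163, 76.1 and 112 in the controls. The gene as a whole stood at 111, 105 and 94.0 CPM against 97.4, 94.9 and 95.9. Both genes were singled out after their values were seen. Across the members, the median SD of log2 CPM between replicates was 0.27 in the knockdown and 0.21 in the controls, against 0.34 and 0.27 over all genes tested. Between knockdown replicates 2 and 3 alone it was 0.15 for the members.

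A list of 25 genes, called partners here, was chosen by role in KRAB silencing and related chromatin regulation, and 24 of them were tested. Besides TRIM28, SETDB1 and the HP1 proteins it holds general chromatin factors. With edgeR's exact test 0 were called lower and 0 higher. Their median log2 fold change was -0.32, and 21 lay below 0 and 3 above, where 5837 of the 11814 genes tested lay below 0. TRIM28, the KRAB corepressor (chr19:58544064-58550722, plus strand, just past group 9), stood at 1.86, 20.9 and 21.8 CPM in the knockdown and 31.3, 9.82 and 25.9 in the controls (log2 fold change -0.61 ± 1.08, SE, n = 3 per group). Knockdown replicate 1 was far below all other samples, with 4 counts against 15 to 55, and without it the value was -0.06. SETDB1, which methylates lysine 9 of histone H3, stood at 136, 178 and 151 CPM against 133, 184 and 177, and the groups overlapped.

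The HP1 proteins bind that methyl mark. CBX1 stood at 21.4, 43.9 and 39.3 CPM against 59.8, 34.0 and 52.4 (-0.50 ± 0.39, SE, n = 3 per group), CBX3 at 26.1, 28.4 and 33.7 against 47.9, 23.6 and 52.9 (-0.51 ± 0.37) and CBX5 at 89.8, 72.9 and 80.7 against 110, 66.1 and 86.5 (-0.11 ± 0.23). All 3 had overlapping groups. Groups were separate for 4 of the 24 partners (16.7%, where 3.56% of all genes tested lay below every control), all lower in the knockdown, namely SMARCAD1, ATRX, DNMT3A and UHRF1. SMARCAD1 alone had an unadjusted p below 0.05. SMARCAD1, a chromatin remodeller that binds TRIM28, stood at 0.930, 4.73 and 4.21 CPM against 13.1, 6.55 and 10.6 (log2 fold change -1.69 ± 0.54, edgeR exact test, adjusted p = 1). These values rested on few counts, 2, 7 and 6 in the knockdown and 23, 10 and 18 in the controls. The log2 fold change was -1.16 without knockdown replicate 1. ATRX, UHRF1 and DNMT3A, of histone deposition and DNA methylation, had values of -0.83, -0.41 and -0.57, and of -0.43, -0.38 and -0.50 without that sample.

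The partners as a list were low in the first knockdown sample. Knockdown replicate 1 was the lowest of the 6 samples in 13 of the 24 partners and the highest in 0. Of the 11814 genes tested, it was the lowest in 3524 and the highest in 3312. The median partner stood at -0.37 on the log2 CPM scale in that sample, at 0.06 and -0.0030 in knockdown replicates 2 and 3, and at 0.36, -0.21 and 0.23 in the controls. The second control was thus low as well. These 2 samples also had the lowest shares of ribosomal protein counts, 0.234% in knockdown replicate 1 and 0.323% in control replicate 2, and the part of that share was not tested. Without knockdown replicate 1, the median of the partners was -0.08, with 9 of 24 above 0. The profile was not particular to the partners. The 5 tested epithelial and ovarian cancer markers stood at a median of -0.61, 0.26 and 0.04 in the knockdown and 0.43, -0.23 and 0.11 in the controls. Knockdown replicate 1 was the lowest of the 6 samples in 4 of these 5 markers.

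**Figure D5:**
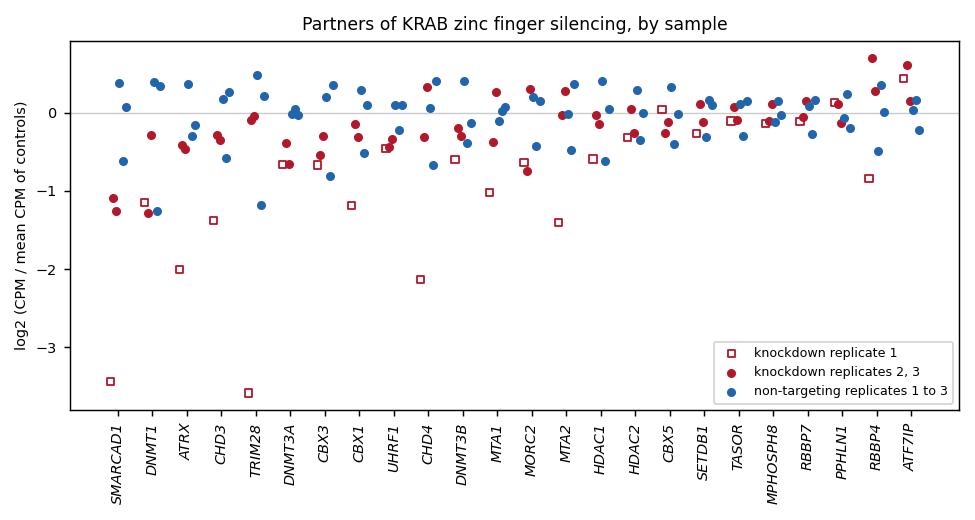
Log2 ratio of each sample's CPM to the mean CPM of the 3 controls (y axis) for the 24 tested partners of KRAB silencing, ordered by log2 fold change (x axis). Open squares are knockdown replicate 1, filled red points knockdown replicates 2 and 3 and blue points the controls. Knockdown replicate 1 is the lowest of the 6 samples in 13 of 24 genes, TRIM28 among them at 1.86 CPM (4 counts).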

How the data were processed

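RNA sequencing of 6 SKOV3 samples was grouped by the labels into 3 DNM3OS knockdown and 3 non-targeting samples. The libraries were stranded and depleted of ribosomal RNA. The authors quantified paired reads with kallisto 0.43.0 (version per the labels) using Ensembl's GRCh38 transcript set. Per transcript, the authors deposited an unnormalized estimated count and an effective length. The deposited TPM is the abundance scaled by length and depth. Whether a strand option was set is not given in the sources used here.

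Transcripts were matched by identifier to GENCODE release 44, and estimated counts and TPM were summed per gene. Counts were rounded, filtered with filterByExpr (minimum count 10), scaled by TMM and compared by the exact test of edgeR 4.0.16 (R 4.3.3). The p-values were adjusted by the Benjamini-Hochberg method over all 11814 genes kept. CPM uses TMM-scaled library sizes, log2 CPM a prior count of 2, and standard errors come from the spread of log2 CPM between replicates. Total counts of 1610937 to 1995888 per sample limit the precision for members with few counts. Single genes were also compared by an exact permutation test of mean log2 CPM. Scripts were tested on simulated counts, with 1 dispersion for all genes and changes placed in genes with a mean above 20 counts. At an adjusted p below 0.05 by the exact test, 36 of 100 log2 changes of size 1 were recovered. Of those of size 2, 98 of 100 were recovered, and the whole run gave 6 false calls. All simulated libraries had the same mean profile, so none stood apart as knockdown replicate 1 did. Changes of 2-fold could thus be missed, and the share of larger changes missed in the real samples was not measured.

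The members and lists were chosen with earlier results of these data known. Named members were those called, up to 8 in each direction whose groups did not overlap, the 5 with the highest TPM, the one with the most counts in each position group and the closest pair of proteins, beside TRIM28, SETDB1, CBX1, CBX3 and CBX5. Other genes named were chosen after their values were seen. Finger and KRAB patterns came from GENCODE coding sequences read on GRCh38, since RefSeq proteins were not used here. Finger units were taken from the same coding sequences, and promoters from RefSeq (GRCh38). Antisense bases are exon bases opposite an exon of another annotated gene.

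The alternatives tried were the quasi-likelihood test of edgeR, plain or blocked by replicate number, DESeq2 (version 1.42.0), RLE scaling, other filters, length-scaled TPM counts, protein-coding genes or transcripts only, no minimum fold, other gaps between position groups and each sample left out. Reading the partners under these settings, counting separate groups with a sample left out and keeping only members with no antisense base were added after the data were seen.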

Additional observations from a re-analysis of the deposited data

How the results depend on the processing

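The counts of members called lower and higher, and those of the partners, were 0 under every alternative run. The median log2 fold change of the tested members lay between 0.0444 (at least 1 CPM in 3 samples) and 0.12 (protein-coding transcripts only) with all 6 samples, between -0.0187 (without knockdown replicate 1) and 0.11 with a sample left out, and at 0.0632 over members with no antisense base. The samples share only a replicate number: deviations of same-numbered samples from their group means correlated at -0.40, -0.34 and 0.23, and with the replicate block the median was 0.0539, with 0 calls. Leaving out a sample gave 16 to 28 members above every control (8.12% to 14.2%, against 7.04% to 12.5% of all genes) and 12 to 26 below (6.09% to 13.2%, against 5.84% to 14.8%). Without control replicate 2, 9.14% of the members and 14.8% of all genes lay below. Position group 5, with 3 tested members, ranged from -0.0129 to 0.30 with a sample left out, group 7 from -0.0265 to 0.18, group 4 from -0.06 to 0.11, group 8 from -0.14 to 0.0467 and the scattered members from -0.24 to 0.11. Gaps of 0.5 and 2 Mb gave 10 and 6 groups in place of 9.

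With length-scaled TPM counts, position group 5 stood at -0.11, the scattered members at -0.34, ZNF320 at 0.11, ZNF562 at -0.10, ZNF493 at -0.0054, ZNF181 at -0.11, ZNF347 at -0.0377 and ZNF417 at -0.67, and with the sign kept ZNF677 at 0.89, ZNF726 at 0.12 and CBX5 at -0.67. With protein-coding transcripts only, ZNF814 stood at 0.052, ZNF44 at 0.46, ZNF875 at 0.0107 and CBX5 at 0.0631, TRIM28 at -0.17 and ZNF528 at -0.69, and with protein-coding genes only ZNF814 stood at 0.0034. With a sample left out, the sign changed for ZNF814 (-0.0413 to 0.0103), ZNF135 (-0.21 to 0.19), ZNF235 (-0.0791 to 0.26), ZNF44 (-0.0934 to 0.0139), ZNF556 (-0.0293 to 0.20), ZNF562 (-0.0425 to 0.13), ZNF493 (-0.068 to 0.13), ZNF347 (-0.0679 to 0.12), ZNF333 (-0.12 to 0.12), SETDB1 (-0.23 to 0.0111) and CBX5 (-0.26 to 0.0858). The cause was not tested. Over all settings, 32 of the 37 named genes that were followed moved by over 1.5 times or changed sign. Other genes named with a fold change were not among the 37, namely ZNF100, ZNF414, ZNF529, ZNF549, ATRX, UHRF1 and DNMT3A. None of the 37 passed an adjusted p of 0.05 under any of these fits, and the lowest was 0.271 (SMARCAD1 without control replicate 2, edgeR exact test).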
